A study of Mus musculus with 12 samples.

Results

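A set of 10 glycolytic genes was followed in cultured mouse aortic smooth muscle cells: 9 enzymes and the glucose transporter Slc2a1. The 10 members were taken by gene symbol and joined by gene identifier across the tables: Slc2a1 (Glut1, glucose uptake), Hk2 (hexokinase), Gpi1 (glucose-6-phosphate isomerase), Pfkp (platelet-type phosphofructokinase), Aldoa (aldolase), Tpi1 (triosephosphate isomerase), Pgk1 (phosphoglycerate kinase), Pgam1 (phosphoglycerate mutase), Eno1 (enolase) and Ldha (lactate dehydrogenase A). They are 10 of 26301 genes counted by RNA-seq and 10 of 15352 genes listed in the RNA immunoprecipitation (RIP-seq) tables. All 10 passed the low-count filter of the RNA-seq test, which kept 13569 genes, and all 10 were detected in every RIP-seq comparison.

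The cells were primary vascular smooth muscle cells that had been isolated with collagenase from the aortas of C57BL/6 mice aged 6 weeks and grown in DMEM with serum; how many animals were used was not given in the sources used here. For RNA-seq, cells at passages 4 to 8 were infected to deliver a short hairpin against Thoc5 (shThoc5, 2 libraries) or a control hairpin (shNT, 2 libraries), and RNA was taken after 4 days. Both shThoc5 libraries used 1 hairpin, so effects of that hairpin on other genes and loss of Thoc5 cannot be told apart, and the labels do not tell whether replicate libraries represent separate cultures, so p-values measure library spread alone, which may be technical. For RIP-seq, unmodified cells at passage 10 and at passage 3 each gave 1 library of RNA precipitated with a Thoc5 antibody, 1 precipitated with a Thoc2 antibody, and 1 input without antibody. No precipitation with a control antibody was used here, so non-specific recovery cannot be told apart from binding.

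Glycolysis turns glucose into pyruvate in the cytosol, and Ldha turns pyruvate into lactate, which restores the oxidised cofactor that the pathway needs. Slc2a1 and hexokinase set how much glucose enters the pathway, and many of its genes are known targets of hypoxia-inducible factor 1, which binds a short core sequence in their promoters. Thoc5 and Thoc2 belong to THO, a complex that helps package new mRNA for nuclear export, and cultured smooth muscle cells are known to change from a contractile to a proliferative state.

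The promoters of 3 genes are shown because, among the 10 members, their genes had the largest differences: Slc2a1 and Hk2 had the lowest ratios of passage 10 to passage 3 input, and Pgam1 had the highest ratio there and the lowest after Thoc5 silencing. Each sequence is the 250 bases before the annotated start site (RefSeq, GRCm38.p6, read 5′ to 3′ on the gene's strand). Slc2a1 lies at chr4:119108495-119108744 (plus strand), Hk2 at chr6:82774455-82774704 (minus strand) and Pgam1 at chr19:41911621-41911870 (plus strand). Capitals mark the letters ACGTG or GCGTG, the core that hypoxia-inducible factor 1 is known to bind, on either strand, where the other strand reads CACGT or CACGC.
Slc2a1: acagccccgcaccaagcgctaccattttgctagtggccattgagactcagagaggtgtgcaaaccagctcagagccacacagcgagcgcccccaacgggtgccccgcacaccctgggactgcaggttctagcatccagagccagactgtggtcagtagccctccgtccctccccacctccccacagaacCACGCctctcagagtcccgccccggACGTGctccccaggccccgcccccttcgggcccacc
Hk2: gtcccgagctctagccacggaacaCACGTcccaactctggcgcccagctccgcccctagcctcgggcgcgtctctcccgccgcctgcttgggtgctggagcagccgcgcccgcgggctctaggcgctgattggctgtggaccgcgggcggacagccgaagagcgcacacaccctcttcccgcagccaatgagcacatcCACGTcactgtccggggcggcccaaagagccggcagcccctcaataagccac
Pgam1: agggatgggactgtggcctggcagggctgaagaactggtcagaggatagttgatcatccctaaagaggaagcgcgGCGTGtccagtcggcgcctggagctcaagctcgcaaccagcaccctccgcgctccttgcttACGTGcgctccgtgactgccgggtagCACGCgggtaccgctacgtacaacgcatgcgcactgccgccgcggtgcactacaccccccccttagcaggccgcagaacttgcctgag
The Slc2a1 and Hk2 sequences each held 2 matches and the Pgam1 sequence held 3. In windows that also took in 50 bases after the start, 6 of the 10 members held ACGTG (Aldoa, Hk2, Ldha, Pgam1, Pgk1, Slc2a1) and 5 held GCGTG (Eno1, Ldha, Pfkp, Pgam1, Slc2a1). Gpi1 and Tpi1 held neither. Either core stood in 12 of the members' 15 windows, and in 43.8% of all 32851 promoter windows (ACGTG in 19.6%, GCGTG in 32.4%). By windows, ACGTG stood in 7 and GCGTG in 8 of those 15. Windows of the same gene can overlap, as for Eno1 and Aldoa, so the same match can be counted in several windows. The GC box GGGCGG, on either strand, stood in 12 of the 15 windows, with at least 1 in each of the 10 members, and in 35.7% of all windows. These are letter matches and not measured binding sites, and ACGTG also lies inside CACGTG, the E-box that other factors bind.

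The RNA-seq libraries held 20206296 and 15819207 reads in genes for shThoc5, against 18498200 and 21037732 for shNT. At passage 10 the RIP-seq libraries held 9364965 (Thoc5), 16303503 (Thoc2) and 19038973 (input) reads, and at passage 3 they held 5975866, 5396291 and 36336141. Ribosomal RNA took 6.74% of the Thoc5 and 18.0% of the Thoc2 library at passage 3, against 0.962% of the input, and between 0.718% and 1.6% of the 3 passage 10 libraries. Thoc5 itself had 7.25 and 5.66 CPM (read counts scaled to library size) in shThoc5 cells, against 33.7 and 40.2 CPM in shNT cells. Of 8 smooth muscle markers, 7 were listed in RIP-seq. Acta2 and Tagln had 4549 and 1359 CPM in the passage 10 input and 2091 and 2194 CPM in the passage 3 input. Cnn1, Lmod1 and Smtn had 152, 174 and 282 CPM at passage 10, and 90.6, 37.9 and 85.9 CPM at passage 3. Myh11, a marker of the contractile state, had 3.05 CPM at passage 10 and 6.72 CPM at passage 3, and Des 0.893 and 9.44 CPM. These levels alone do not settle the cell type.

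The largest differences among the 10 members stood between the 2 inputs. RNA of the glucose transporter Slc2a1 was over 10 times lower in the passage 10 input than in the passage 3 input, Hk2 was over 6 times lower, and 7 further members were lower by smaller amounts. Pgam1 alone was higher. Each passage has 1 input library, so there is no replicate check, passage and library preparation cannot be told apart, and the 95% intervals given for RIP-seq (exact, from the 2 counts) cover counting error only. In bulk RNA, fewer cells of a type and less RNA per cell cannot be told apart either.

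Slc2a1 had 1419 reads (74.5 CPM) in the passage 10 input, against 30604 reads (842 CPM) in the passage 3 input. This is a log2 ratio of −3.49 (with 0.5 CPM added to both), or a fold of 0.0885 with an interval of 0.0838 to 0.0933, and 2.20% of detected genes had a lower ratio. Hk2, the hexokinase that traps glucose as glucose-6-phosphate, had 476 reads (25.0 CPM) at passage 10, against 5742 reads (158 CPM) at passage 3. Its log2 ratio was −2.64 and its fold 0.158 (interval 0.144 to 0.174), and 3.88% of genes lay below it. Slc2a1 and Hk2 were thus the members furthest apart between the inputs. The other main hexokinase gene, Hk1, which is no member, lay the other way, at 192 CPM in the passage 10 input, against 125 CPM in the passage 3 input.

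The other enzymes differed by less than 2-fold. Ldha had 634 CPM in the passage 10 input, against 1170 CPM in the passage 3 input (log2 −0.88). Eno1, which makes phosphoenolpyruvate, had 515 against 865 CPM (log2 −0.75), and Pgk1, which makes the first ATP of the pathway, had 115 against 182 CPM (log2 −0.66). Gpi1, Tpi1, Aldoa and Pfkp, which act between hexokinase and Gapdh, had log2 ratios of −0.49, −0.35, −0.31 and −0.31. Pgam1, which moves the phosphate of 3-phosphoglycerate, had 43.7 against 23.2 CPM, a log2 ratio of 0.90 (fold 1.88, interval 1.71 to 2.08). So 9 of the 10 members were lower at passage 10, where 33.8% of all 12583 detected genes were. The members' median log2 ratio was −0.57, against 0.49 over all detected genes. Only genes listed at both passages enter the shares and ranks between the inputs and the counts of related lists. With Thoc5 and Thoc2, 13233 and 13467 genes were listed at passage 10, and 14723 and 14635 at passage 3. Genes with few reads at passage 10 can thus be missing, and the shares of lower genes can be too low.

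**Figure D1:**
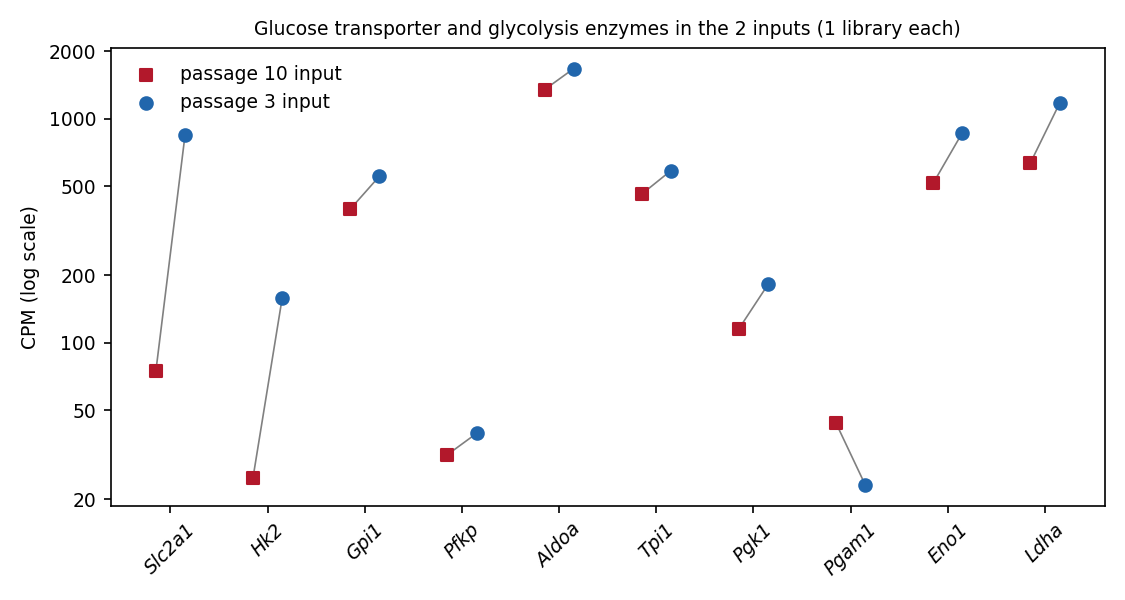
RNA level of each member in the passage 10 and passage 3 inputs (CPM on a log axis, 1 library each). Slc2a1 stands at 74.5 CPM at passage 10 and 842 CPM at passage 3, the widest gap, and Pgam1 is the member with the higher passage 10 value.

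A gene was counted as lower at a log2 ratio of −1 or less, with at least 10 reads and 1 CPM in the input where it was higher. Slc2a1 and Hk2, 2 of the 10 members, met this rule, against 12.7% of all detected genes, and no member met the matching rule for higher, which 31.7% of detected genes did. The split of all genes depended on scaling: 3992 higher and 1602 lower genes with library totals became 2566 and 2384 with TMM factors, which took the median of all genes to 0.07. With TMM factors the members' median was −0.995, 9 members stayed below 0, and 5 met the rule for lower: Slc2a1 (−3.91), Hk2 (−3.06), Ldha (−1.31), Eno1 (−1.17) and Pgk1 (−1.08).

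Slc2a1 and Hk2 were also the members whose rank per length shifted most. In RPKM, which divides CPM by gene length in kilobases, Aldoa was the highest member in both inputs, at 738 in the passage 10 input and 917 in the passage 3 input, followed by Ldha at 329 and 606. Slc2a1 stood at 29.0 RPKM in the passage 10 input, below Pgk1 (64.0), and at 327 RPKM in the passage 3 input, next to Tpi1 (366). Hk2 was the lowest member at passage 10 (4.53 RPKM), while at passage 3 it had 28.7 RPKM and lay above Pgam1 (12.7) and Pfkp (9.87). The remaining members kept to 138 (Gpi1), 287 (Tpi1) and 290 (Eno1) RPKM at passage 10, against 194, 366 and 487 RPKM at passage 3. Eno1 and Tpi1 at passage 10 were nearly equal.

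In the RNA-seq cells, at passages 4 to 8, Slc2a1 and Hk2 lay nearer to the passage 10 than to the passage 3 input. Slc2a1 had 69.7 to 75.1 CPM of the library total over the 4 RNA-seq libraries and Hk2 had 15.3 to 20.5 CPM. Eno1, Tpi1 and Aldoa lay well below both inputs in the RNA-seq libraries, with 104 to 168, 158 to 186 and 489 to 674 CPM. Gpi1, Pgk1 and Ldha lay below both inputs too. Pfkp had 40.0 to 51.1 CPM, above the 31.6 and 39.4 CPM of the passage 10 and passage 3 inputs. Pgam1 had 20.7 to 41.0 CPM, against 43.7 and 23.2 CPM in these inputs. These tables were made separately and the passages differ, so the values are set side by side without a test.

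Genes of the same pathway outside the 10 members, where listed at both passages, did not share the members' direction as a group. Of 17 further glycolytic genes, 9 were listed at both passages and detected, with a median log2 ratio of 0.74. Of these, 3 met the rule for higher and 0 that for lower, against 31.7% and 12.7% of all detected genes. Hk3 and Eno1b, at 4.71 and 1.13 CPM in the passage 3 input, were not listed at passage 10 and were not counted. The muscle isoforms Eno3 and Pfkm had 53.6 and 67.9 CPM at passage 10, against 6.55 and 12.7 CPM at passage 3 (log2 2.94 and 2.37); Eno3 overlaps Pfn1 and Pfkm overlaps Senp1, and use of strand in counting was not given in the sources used here. Gapdh and Pkm, the abundant enzymes of the lower pathway, had 456 against 551 CPM (log2 −0.27) and 1104 against 1345 CPM (log2 −0.28). Of 7 regulators of glycolysis, 4 were detected, and 2 met the rule for lower: Pfkfb3 had 18.5 against 59.0 CPM (log2 −1.64) and Pfkfb4 9.98 against 31.0 CPM (log2 −1.59), both makers of fructose-2,6-bisphosphate, the activator of phosphofructokinase.

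Transporters of lactate differed in the same direction as Slc2a1. Slc16a3 (Mct4), the lactate exporter, had 10.4 CPM in the passage 10 input, against 144 CPM in the passage 3 input (log2 −3.73), and Slc16a1 (Mct1) had 20.6 against 53.8 CPM (log2 −1.37). Slc16a3 overlaps Csnk1d. In the same list of 17 lactate and pyruvate genes, of which 15 were detected (median log2 0.43, 5 higher and 3 lower), Ldhb and Pdk2 had the opposite sign. Ldhb, the other lactate dehydrogenase subunit, had 74.9 against 20.2 CPM (log2 1.86), and Pdk2, a kinase that inhibits pyruvate dehydrogenase, had 51.3 against 7.24 CPM (log2 2.74).

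All 22 genes of a hypoxia list, which shares no gene with the members, were detected, with a median log2 ratio of −0.34; 13 were below 0, 7 met the rule for lower and 4 that for higher. P4ha2, a collagen prolyl hydroxylase, had 51.7 CPM in the passage 10 input, against 373 CPM in the passage 3 input (log2 −2.84), and the peptide hormone gene Adm had 20.0 against 137 CPM (log2 −2.75). Ndrg1 and the oxygen sensor Egln2 lay the other way, at 226 against 56.6 CPM (log2 1.99) and 101 against 23.8 CPM (log2 2.06). The list thus held genes far apart in both directions.

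Side branches of the pathway were mixed too. The 7 pentose phosphate genes were all detected, with a median log2 ratio of −0.13; G6pdx, the first enzyme of that pathway, was the only 1 past the rule, at 126 CPM in the passage 10 input against 51.4 CPM in the passage 3 input (log2 1.28), and it overlaps Ikbkg. Of 13 genes of glycogen and gluconeogenesis, 10 were detected (median −0.30, 2 higher and 3 lower). The glycogen phosphorylases went apart: Pygl had 5 against 428 reads (fold 0.0223, interval 0.0072 to 0.0524), and Pygb had 104 against 13.7 CPM (log2 2.88). Among 9 other glucose transport genes, 5 were detected (median 0.82), and Txnip, which lowers glucose uptake, had 371 against 145 CPM (log2 1.35); it overlaps Gm15441.

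**Figure D2:**
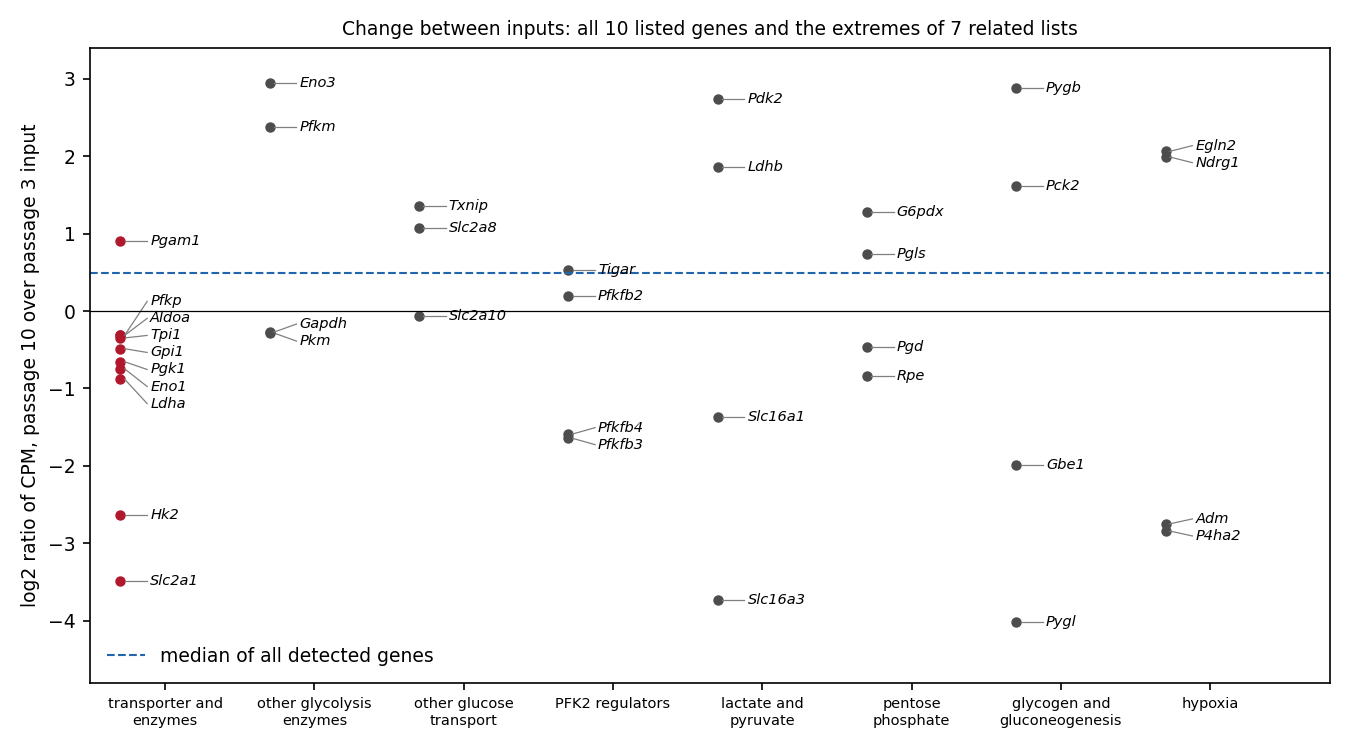
Log2 ratio of passage 10 over passage 3 input (0.5 CPM added) for the 10 members and for the 2 highest and 2 lowest genes of each related list among genes at 10 CPM or more. Pygl (−4.01), Slc16a3 (−3.73) and Slc2a1 (−3.49) lie at the low end, and Eno3 (2.94) and Pygb (2.88) at the high end.

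Markers of other cell types differed between the inputs as well. Adventitial fibroblast markers summed to 963 CPM in the passage 10 input, against 4356 CPM in the passage 3 input, with 6 of 9 past the rule for lower (Dcn 13.8 against 1041 CPM). Endothelial markers summed to 71.6 against 258 CPM (6 of 8 detected markers lower), and macrophage markers to 54.6 against 232 CPM (3 of 4 lower). At 1 CPM or more were 4 of 10 macrophage markers in the passage 10 input, against 10 in the passage 3 input. Macrophage markers not listed at passage 10 were not among the 4 compared. Proliferation genes summed to 490 against 172 CPM, with 9 of 12 higher, and smooth muscle markers to 6520 against 4515 CPM, with 3 higher and 2 lower of 7. The part of these differences in the values of Slc2a1, Hk2 and the other members was not tested.

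Next, the members were compared between the RNA precipitated with each THO antibody and its input. Hk2 was the member with the highest ratio in all 4 precipitates and the 1 member past the 2-fold rule, at passage 3 with both antibodies. Tpi1 was the lowest and Aldoa the next lowest in all 4, and no member was 2-fold below input in any precipitate. Slc2a1 and Ldha lay below input in all 4.

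Hk2 had 36.2 CPM in the Thoc5 precipitate and 40.4 CPM in the Thoc2 precipitate at passage 10, against 25.0 CPM in the input. At passage 3 it had 344 CPM with Thoc5 and 344 CPM with Thoc2, against 158 CPM in the input. The log2 ratios over input were 0.53 (fold 1.45, interval 1.26 to 1.67) and 0.68 (1.62, interval 1.43 to 1.82) at passage 10, and 1.12 (2.18, interval 2.07 to 2.29) and 1.12 (2.18, interval 2.07 to 2.30) at passage 3, in the order Thoc5, Thoc2. These ratios were above those of 79.6%, 80.6%, 80.1% and 84.1% of detected genes. With TMM factors the passage 3 Thoc5 ratio of Hk2 was 0.89 and no longer past the rule.

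Pfkp, the phosphofructokinase, was the other member above input throughout, with log2 ratios of 0.25 (Thoc5) and 0.28 (Thoc2) at passage 10 and 0.55 and 0.24 at passage 3. Pgam1 had 42.8 CPM with Thoc5 and 37.2 CPM with Thoc2 at passage 10, against 43.7 CPM in the input, and 28.8 and 30.2 CPM at passage 3, against 23.2 CPM. Its ratios were thus close to 0 or below at passage 10 (log2 −0.03 and −0.23) and above 0 at passage 3 (0.31 and 0.37). Eno1 lay between −0.07 and 0.10 in the 4 precipitates and changed sign with the scaling in 3 of them.

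The remaining members were mainly below input. Slc2a1 had 66.4 CPM with Thoc5 and 62.5 CPM with Thoc2 at passage 10, against 74.5 CPM in the input, and 719 and 509 CPM at passage 3, against 842 CPM. Its log2 ratios were −0.17 and −0.25 at passage 10 and −0.23 and −0.73 at passage 3, so the passage 3 excess of Slc2a1 over passage 10 was present in the precipitates as in the inputs. Tpi1 had 361 CPM with Thoc5 and 296 CPM with Thoc2, against 460 CPM in the input, at passage 10 (log2 −0.35 and −0.64), and 480 and 305 CPM, against 586 CPM, at passage 3 (log2 −0.29 and −0.94). Aldoa ranged from −0.26 to −0.89, Ldha from −0.04 to −0.78, Pgk1 from 0.05 to −0.72 and Gpi1 from 0.15 to −0.42. The value furthest below 0 of each of these members came from the Thoc2 precipitate of passage 3.

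Past the rule for enriched (log2 of 1 or more) were 0 of 10 members with Thoc5 and 0 with Thoc2 at passage 10, against 5.94% and 12.3% of all detected genes. At passage 3, 1 of 10 (Hk2) was enriched with each antibody, against 23.0% (Thoc5) and 18.0% (Thoc2) of detected genes. Past the rule for depleted were 0 members in every precipitate, against 4.61% (Thoc5) and 7.33% (Thoc2) of genes at passage 10 and 12.7% and 21.8% at passage 3. Above input were 4 (Thoc5) and 2 (Thoc2) of 10 members at passage 10, against 52.7% and 48.6% of genes, and 5 and 3 at passage 3, against 57.5% and 44.7%. The members' median log2 ratios were −0.03 (Thoc5) and −0.24 (Thoc2) at passage 10, against 0.04 and −0.03 over all detected genes, and −0.02 and −0.57 at passage 3, against 0.20 and −0.15.

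The splits over all genes depended on scaling. For Thoc5 at passage 3, 3069 enriched and 1691 depleted genes became 2364 and 2444 with TMM factors, and the median of all genes went to −0.04. For Thoc2 at passage 3, 2354 and 2860 became 3076 and 2108 when ribosomal RNA was left out of the totals, and that median went to 0.10. For Thoc5 at passage 10, 749 and 581 became 552 and 676 with TMM factors. Among the members, TMM factors turned Eno1 (to −0.02) and Pgk1 (to −0.04) below input with Thoc5 at passage 10 and Eno1 (to −0.13) and Gpi1 (to −0.09) with Thoc5 at passage 3. With Thoc2 at passage 3, Eno1 turned above input with TMM factors (0.04) and without ribosomal RNA (0.21). The other members kept their side of the input under both scalings.

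**Figure D3:**
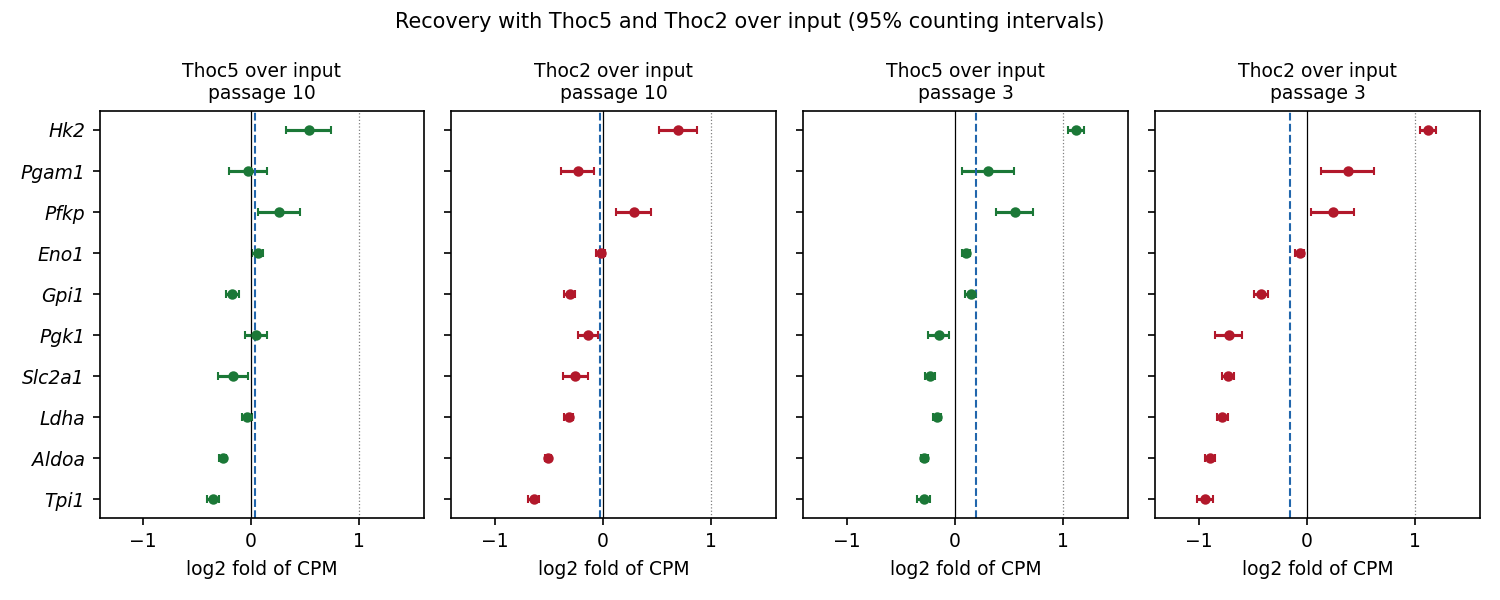
Log2 ratio of precipitate over input (0.5 CPM added) for each member, in the panels Thoc5 and Thoc2 at passage 10 and Thoc5 and Thoc2 at passage 3, with 95% counting intervals. The dashed line is the median of all detected genes and the dotted line the rule of log2 1; Hk2 is highest in every panel, at 0.53, 0.68, 1.12 and 1.12.

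The ends of the members' order matched the ends of their order by gene length. Tpi1, the lowest, has the shortest counted exon length (1601 bases), and Hk2, the highest, the longest (5513 bases), followed by Pfkp (3986 bases). Across the 10 members, which share the same libraries, Spearman's rho between length and log2 ratio was 0.44 (Thoc5) and 0.48 (Thoc2) at passage 10, and 0.67 and 0.56 at passage 3. Over all detected genes the median log2 ratio went with length as well: in 4 length classes of equal size, from short to long, it was −0.58, −0.13, 0.15 and 0.65 for Thoc2 at passage 10, and −0.99, −0.36, 0.06 and 0.81 for Thoc2 at passage 3. For Thoc5 it was −0.42, −0.04, 0.18 and 0.48 at passage 10, and −0.45, 0.11, 0.38 and 0.71 at passage 3. Hk2 lies in the longest class and Tpi1 in the shortest, and the part of length in their ratios was not tested.

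**Figure D4:**
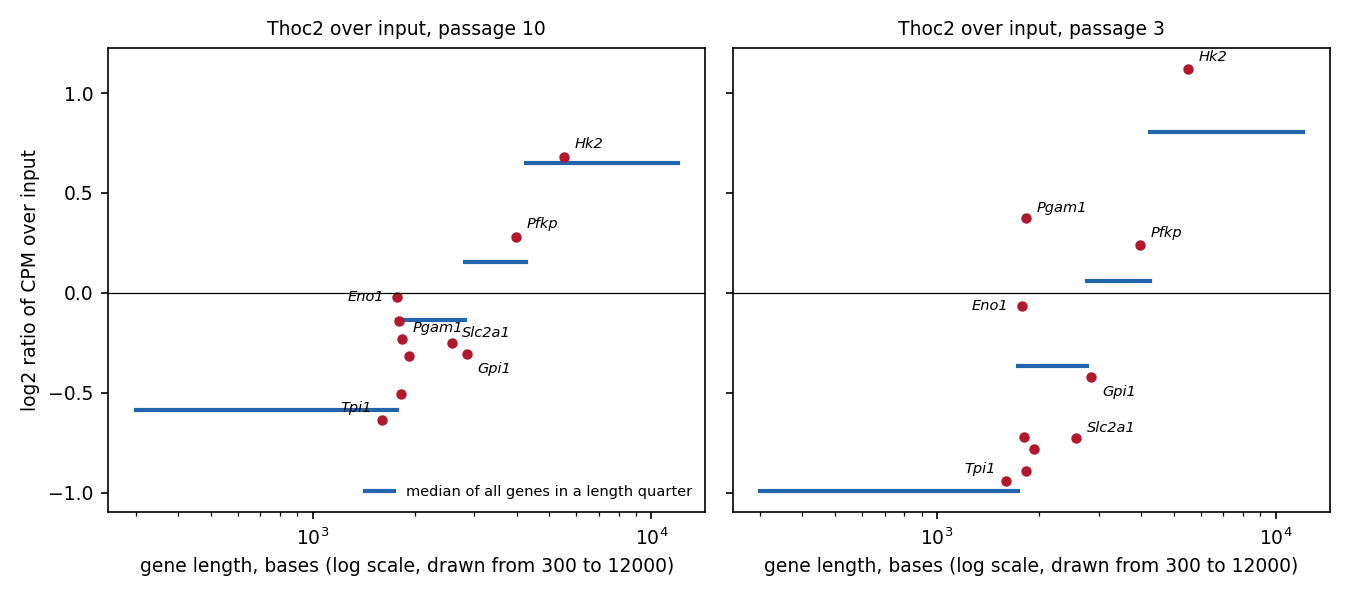
Log2 ratio of the Thoc2 precipitate over input against counted gene length (log axis) for the 10 members at passage 10 and passage 3. Horizontal bars give the median of all detected genes in each of 4 length classes, which runs from −0.58 to 0.65 at passage 10 and from −0.99 to 0.81 at passage 3.

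Other genes of the pathway spread further than the members. Gapdh lay below input in all 4 precipitates, at log2 −0.78 (Thoc5) and −1.11 (Thoc2) at passage 10 and −0.61 and −1.4 at passage 3. Hk1, the hexokinase found in most tissues, lay above input like Hk2, at 0.61 (Thoc5) and 0.70 (Thoc2) at passage 10, and its Thoc2 ratio was 1.09 at passage 3. Of the further glycolytic genes, 0 of 9 were enriched with Thoc5 and 1 of 9 with Thoc2 at passage 10, and 5 of 13 and 4 of 12 at passage 3. Depleted were 0 and 1 of these genes at passage 10 and 0 and 2 at passage 3. Over all detected genes, in the same order, 5.94%, 12.3%, 23.0% and 18.0% were enriched, and 4.61%, 7.33%, 12.7% and 21.8% depleted.

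The mitochondrial pyruvate carrier gene Mpc2 was below input by log2 −1.07 (Thoc5) and −1.39 (Thoc2) at passage 10 and −1.27 and −2.42 at passage 3. Its partner Mpc1 had −1.08 and −1.65 at passage 10. Kdm3a, a histone demethylase of the hypoxia list, lay at the other end, at 0.88 and 1.85 at passage 10 and 2.22 and 1.81 at passage 3. Of the lactate and pyruvate genes, 0 of 15 were enriched and 2 depleted with each antibody at passage 10, and at passage 3 it was 0 and 2 of 16 with Thoc5 and 1 and 4 of 16 with Thoc2. Hypoxia genes were enriched in 0 of 21 (Thoc5) and 2 of 21 (Thoc2) cases at passage 10, and in 4 of 22 and 3 of 22 at passage 3. Depleted were 0, 1, 3 and 4 of the hypoxia genes in that order. The shares over all detected genes given for the further glycolytic genes hold for these lists too.

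Cardiac muscle markers summed to 44.0 CPM in the Thoc5 and 198 CPM in the Thoc2 precipitate at passage 3, against 8.28 CPM in the input. There, 6, 8 and 1 of 9 were at 1 CPM or more. At passage 10 they summed to 33.5 and 31.8 CPM, against 46.6 CPM, with 1, 5 and 2 of 9 at 1 CPM or more. Their part in the members' ratios was not tested. The authors' deposited tables also list bound genes for each precipitate, each with a score of 0.30 or more. These lists hold 560 genes (Thoc5, 13233 counted) and 2277 genes (Thoc2, 13467 counted) at passage 10. At passage 3 they hold 919 (14723 counted) and 1046 (14635 counted). With shares of that size, a count over 10 genes is not read as a result. Of the 10 members, 0 stand in any of these lists. Genes of the further glycolytic, regulator and glycogen lists that do are Pgam2 and Hk3 with Thoc5 at passage 3, Pgam2 with Thoc2 at passage 3, and Eno2, Gys1, Pfkfb4, Pygl and Pygm with Thoc2 at passage 10.

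Set directly against each other, the Thoc5 and Thoc2 precipitates of passage 10 differed little for the members. The log2 ratio of Thoc5 over Thoc2 ran from −0.16 (Hk2) to 0.29 (Tpi1), with a median of 0.16, against 0.06 over all detected genes, and 8 of 10 members were above 0, against 56.7% of genes. At passage 3 it ran from −0.07 (Pgam1) to 0.65 (Tpi1), with a median of 0.53, against 0.35, and 9 of 10 were above 0, against 69.6% of genes. Aldoa (0.61), Ldha (0.61), Pgk1 (0.57), Gpi1 (0.57) and Slc2a1 (0.50) stood near Tpi1, and Hk2 was at 0.00. No member was past 2-fold either way, against 1.15% of genes higher and 3.67% lower at passage 10, and 14.6% and 6.11% at passage 3. With TMM factors the passage 3 median was 0.20, with 6 of 10 above 0 (Eno1, Hk2 and Pfkp turned below), and the split over all genes of 1858 higher and 778 lower became 1037 and 1295 (1340 and 1023 without ribosomal RNA).

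Thoc5 silencing was then compared with the control hairpin. None of the 10 members passed the test, and in 7 of them the shThoc5 and shNT libraries overlapped. Pgam1 had the lowest ratio, and 3 members (Pgam1, Pfkp and Slc2a1) were lower in both shThoc5 libraries than in both shNT libraries. Of all 13569 genes tested, 16.4% had that order and 16.2% the opposite order, which no member had.

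Pgam1 had 23.7 and 20.3 CPM in shThoc5 cells, against 29.4 and 42.4 CPM in shNT cells (22 ± 2.37 and 35.9 ± 9.14, SD, n = 2 each). Both shThoc5 values lay below both shNT values, and the shNT libraries differed more from each other than the shThoc5 libraries did. The log2 fold change was −0.70 ± 0.22 (SE), with an adjusted p of 0.9995 by edgeR's quasi-likelihood test (unadjusted p = 0.0216). The adjusted p lay between 0.0544 and 0.9995 over the alternatives to that fit (edgeR, DESeq2 and limma-voom). In the authors' deposited table its log2 fold change is −0.68 with an adjusted p of 0.9999. The ratio thus had the opposite sign to that of Pgam1 between the inputs.

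Slc2a1 had 73.4 and 68.6 CPM in shThoc5 cells, against 75.4 and 77.4 CPM in shNT cells (71.0 ± 3.43 and 76.4 ± 1.45, SD, n = 2 each), a log2 fold change of −0.11 ± 0.13 (SE). Pfkp had 39.3 and 43.7 CPM, against 51.3 and 48.9 CPM (log2 −0.27 ± 0.14). The groups did not overlap for these members either, though the gap of Slc2a1 was smaller than its standard error. Hk2, far lower in the passage 10 input, had 15.1 and 20.1 CPM in shThoc5 cells, against 18.0 and 20.9 CPM in shNT cells (log2 −0.14 ± 0.21), with overlapping groups.

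Ldha had 317 and 373 CPM in shThoc5 cells, against 238 and 404 CPM in shNT cells (log2 0.10 ± 0.28), so both shThoc5 values lay inside the shNT range. Eno1 had 119 and 128 CPM, against 105 and 174 CPM (log2 −0.17 ± 0.26), with the same order. Pgk1, Aldoa and Tpi1 had log2 fold changes of −0.28 ± 0.19, −0.20 ± 0.21 and −0.12 ± 0.16, and Gpi1 was at 0.01 ± 0.20. In shNT cells replicate 2 exceeded replicate 1 by log2 0.76 for Ldha, 0.73 for Eno1 and 0.52 for Pgam1, and the median of this difference over the members was −0.02 in shThoc5 and 0.24 in shNT. The widest of these differences within a group exceeded the largest difference between the groups.

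The members' median log2 fold change was −0.16, with 8 of 10 below 0, against 0.01 and 48.7% over all genes tested. By edgeR's quasi-likelihood test 0 of 10 members and 0 of 13569 genes passed an adjusted p of 0.05. At an unadjusted p below 0.05 stood 1 member (Pgam1) and 651 genes (4.80%); limma-voom called 0 genes and DESeq2 48 of 10559 (0.455%), none of them a member. Thoc5 itself, at log2 −2.51 ± 0.21, had an adjusted p of 0.499 by edgeR and 6.67e-15 by DESeq2 (up to 0.920 over all alternatives). An exact permutation test of 2 against 2 cannot go below p = 0.333.

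**Figure D5:**
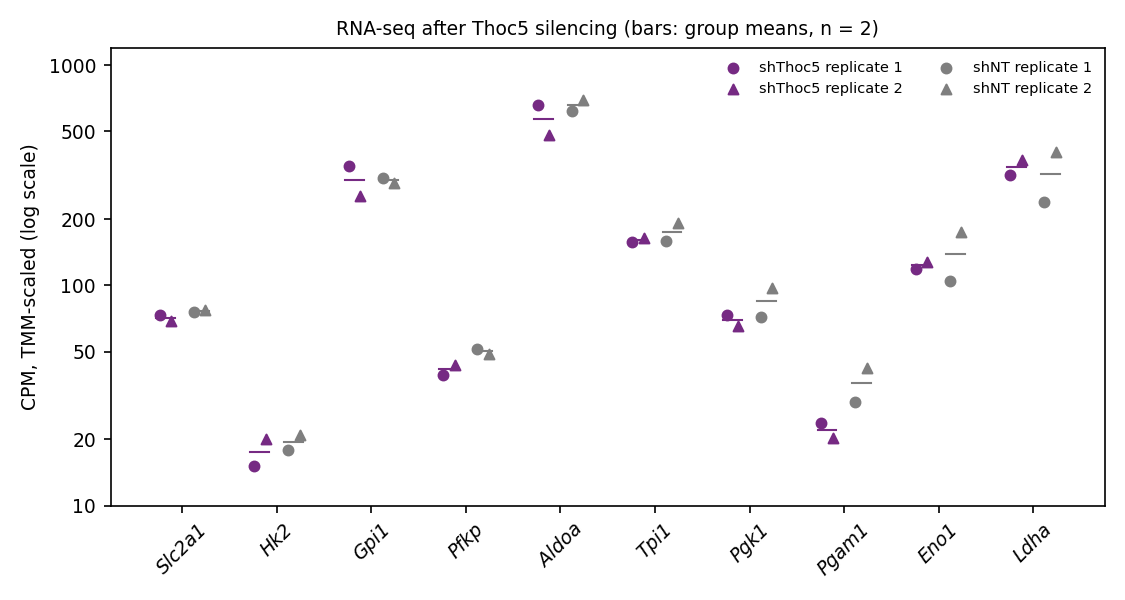
TMM-scaled CPM of each member (log axis) in the shThoc5 and shNT libraries; circles are replicate 1, triangles replicate 2 and bars the group means. Pgam1, Pfkp and Slc2a1 are the members whose groups do not overlap.

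Per length, the members kept 1 order over both groups but for neighbours. Mean RPKM in shThoc5 and shNT cells was 314 and 360 for Aldoa, 179 and 166 for Ldha, 106 and 105 for Gpi1, 100 and 109 for Tpi1, 69.5 and 78.4 for Eno1, and 38.6 and 47.0 for Pgk1. Slc2a1 had 27.6 and 29.7 RPKM, Pgam1 12 and 19.6, Pfkp 10.4 and 12.6, and Hk2 3.19 and 3.53. Gpi1 and Tpi1 were close to each other in both groups and swapped places, and Pgam1 and Pfkp were close in shThoc5 cells.

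Among the listed pathway genes outside the members, DESeq2 called 2, Hk1 and Pgm2, and edgeR's comparison of the 2 groups with no further term called none. Hk1, a hexokinase, was lower in both shThoc5 libraries. It had 78.7 and 60.9 CPM in shThoc5 cells, against 154 and 163 CPM in shNT cells (69.8 ± 12.6 and 158 ± 6.59, SD, n = 2 each), with groups well apart. Its log2 fold change was −1.18 ± 0.18, with an adjusted p of 0.9995 by edgeR and 0.000114 by DESeq2, the ends of its range over all alternatives. Without shThoc5 replicate 1 its adjusted p by edgeR was 0.0470, a fit in which the spread comes from the shNT pair alone and the lone shThoc5 library is assumed to vary like it. Hk1 overlaps the antisense gene Hk1os. Of the glycogen list, Pgm2, a phosphoglucomutase, had 61.7 and 60.0 CPM in shThoc5 cells, against 34.9 and 32.8 CPM in shNT cells (log2 0.85 ± 0.14), with an adjusted p of 0.9995 by edgeR and 0.0144 by DESeq2 (0.00487 to 0.9995 over all alternatives).

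The medians of log2 fold changes were 0.05 over 11 further glycolytic genes, −0.09 over 5 regulators, −0.06 over 15 lactate and pyruvate genes, −0.14 over 7 pentose phosphate genes and 0.18 over 22 hypoxia genes. Among the hypoxia genes, 9 of 22 were higher in both shThoc5 libraries than in both shNT libraries and 1 was lower in both. Over all genes tested, 16.2% were higher in both and 16.4% lower in both. Of the 22, edgeR's comparison with no further term and DESeq2 called 0, and the list as a set was not tested. Slc16a3, which was far lower in the passage 10 input, had 7.73 and 7.46 CPM in shThoc5 cells, against 8.36 and 11.3 CPM in shNT cells (log2 −0.37).

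Sums of cell type markers and proliferation genes, all in CPM of the library total, differed between the RNA-seq libraries too. Endothelial markers summed to 307 and 322 CPM in shThoc5 cells, against 396 and 632 CPM in shNT cells, and 7 to 8 of 10 were at 1 CPM or more in each library. Adventitial fibroblast markers summed to 1745 and 1479 CPM, against 2008 and 1854 CPM, and smooth muscle markers to 1389 and 2317 CPM, against 1978 and 4042 CPM. Macrophage markers summed to 14.9 to 21.8 CPM in all 4 libraries. Proliferation genes went with the replicate number, at 388 and 128 CPM in shThoc5 cells, against 327 and 133 CPM in shNT cells. The part of these markers in the members' values was not tested.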

How the data were processed

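RNA-seq and RIP-seq were analysed; the ChIP-seq libraries were not analysed here. The authors deposited raw read counts per gene for 4 RNA-seq and 6 RIP-seq libraries, with genes of few reads left out of the RIP-seq tables (every listed gene has at least 11 reads over both libraries of its table). Per the submitters' processing notes, bcl2fastq, Subread, featureCounts, limma, HOMER 4.8.3, MACS2 2.1.1 and build mm9 were used, with no role or order given. The authors also deposited a ratio of precipitate to input, lists of bound genes with a score per gene, and a table of log2 fold changes with p-values; only the scores' lists and the fold changes named as theirs are printed. Strand use in counting was not given in the sources used here.

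RNA-seq counts were tested with edgeR 4.0.16 in R 4.3.3 (filterByExpr, TMM factors, quasi-likelihood test, Benjamini-Hochberg adjustment over all tested genes, threshold 0.05), and its CPM values are TMM-scaled unless the library total is named. RPKM used the authors' deposited gene length. RIP-seq values are CPM of the library total, with 0.5 CPM added before log2 ratios. A gene was detected at 10 reads and 1 CPM in either library, among genes listed for both libraries of a comparison. Genes left out at 1 passage for few reads are therefore missing from the comparison of the inputs, whatever their level at the other passage. With 1 library a group there is no test; 95% intervals are exact (Clopper-Pearson on the 2 counts). Alternatives used DESeq2 1.42.0, limma 3.58.1, other scalings and filters, 0.1 or 2 CPM added, a minimum of 50 reads, totals without ribosomal RNA, the replicate block and leaving out each library. The pipeline was tested on simulated data. Promoters came from RefSeq (GRCm38.p6) and were matched by symbol for all 10 members.

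The members and gene lists were chosen with earlier results of these data known. Named genes were the 10 members, the 2 highest and 2 lowest genes at 10 CPM or more of each related list, of which only some are printed, and the targets; other pathway genes named were chosen after their values were seen. Reads of Pfkp and Tpi1 may be shared with Pitrm1 and Spsb2, which overlap them. The near-identical copies Eno1b, Aldoart1 and Aldoart2 had at most 41, 4 and 2 reads in any library with a count for them. These counts cannot show whether reads that fit both a gene and its copy were lost.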

Additional observations from a re-analysis of the deposited data

Results flagged for a closer look

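Gpi1 had a ratio to input of opposite sign at the 2 passages with Thoc5, at log2 −0.17 at passage 10 and 0.15 at passage 3, and each counting interval lay on its own side of no difference. Pgam1 did so with Thoc2, at −0.23 at passage 10 and 0.37 at passage 3. The difference between the passages was not tested, as each has 1 library. With TMM factors the Gpi1 ratio at passage 3 was −0.09, below 0 like that of passage 10, while the Pgam1 ratios kept their signs, at −0.29 at passage 10 and 0.48 at passage 3.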

How the results depend on the processing

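No member passed the RNA-seq test under any alternative. The count of genes called between shThoc5 and shNT was 0 by edgeR, 48 by DESeq2, 1 with no low-count filter and 511 with the replicate block, and 0 to 47 when each library was left out, with 47 without shThoc5 replicate 1. Same-numbered libraries deviated together (correlation 0.635), and the first principal component, with 61.3% of the variance, separated the numbers, but the labels do not say what a number stands for. With the block edgeR called Thoc5 and 4 listed pathway genes: Hk1 (adjusted p 0.00275), Pgm2 (0.00487), Adm (0.0359) and Ugp2 (0.0408). Without shThoc5 replicate 1, where the lone shThoc5 library is assumed to vary like the shNT pair, it called 2, Hk1 (0.0470) and G6pdx (0.0491), and it called none of them in its other alternatives. The log2 fold change of Gpi1 turned to −0.0149 with limma-voom and to −0.0103 with the block. Leaving out 1 library turned the sign of Gpi1 (−0.25 to 0.22), Ldha (−0.23 to 0.53), Eno1 (−0.50 to 0.24), Hk2 (−0.37 to 0.0409), Aldoa (−0.46 to 0.0110) and Tpi1 (−0.26 to 0.0216).

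In RIP-seq at passage 3, the members' median was −0.30 for Thoc2 and 0.35 for Thoc5 over Thoc2 without ribosomal RNA in the totals, and −0.26 for Thoc5 and 0.20 for Thoc5 over Thoc2 with TMM factors; between the inputs TMM gave −0.995 and 2566 genes higher at passage 10. For Thoc5 over Thoc2 at passage 3, genes higher and lower were 1188 and 511 with 2 CPM added, 1037 and 1295 with TMM factors, and 1062 and 371 with at least 50 reads. At passage 10 the higher genes were 246 with 0.1 CPM added, 17 with 2 CPM added (262 lower) and 38 with at least 50 reads. Thoc5 over input at passage 10 gave 470 enriched and 302 depleted genes with 2 CPM added. The cause was not tested. The number of libraries (2 a group in RNA-seq, 1 in RIP-seq) limits every comparison, and counting error was smallest for the abundant members.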

Other observations

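Over the 10 libraries of both assays, each centred within its assay, the genes whose level was most like the mean of the members were Lbp (Pearson's r = 0.989), Icam1 (0.989), Apol9a (0.988), Ncstn (0.987) and Ece1 (0.983), of 8463 genes ranked. Of the members, Slc2a1 (0.967) and Eno1 (0.931) were closest to that mean, and Pgam1 (−0.524) went against it. Each member is part of that mean. Values were centred but not scaled, so members with large differences between libraries, such as Slc2a1 and Hk2, weigh most in it. The libraries share inputs, passages and depth, so these values are a description.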
